A study of Mus musculus with 6 samples.

Results

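Cell cycle genes in resting mouse liver were followed as 36 genes chosen by name, with earlier results of these data known. Of the 36 genes, 11 act in G1 and at entry into S phase, 10 in DNA replication, and 15 in G2 and mitosis (G2/M). Each of the 36 symbols had a row in the deposited tables of 22599 genes, and all 36 were among the 13205 genes that passed the count filter. Bulk RNA sequencing was done on 6 liver libraries. The 3 NcoR1ΔHep libraries carry the genotype label knockdown NcoR1, and the 3 flox libraries came from NcoR1fl/fl mice labelled as wild type. The sources used here do not give the promoter that drove the deletion, nor the age and sex of the mice. The titles place every library at 0 h of ischemia-reperfusion, although the treatment label of each names that procedure. Mice of both groups were kept on chow under a 12-hour light cycle. The number of mice behind each group is not labelled, and p-values cover only the spread among its libraries.

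Most cells of an adult liver are hepatocytes that have left the cell cycle and re-enter it mainly after injury or loss of tissue. D-type cyclins with their kinases start G1 by phosphorylating the retinoblastoma protein, which frees E2F factors to switch on cyclin E and the replication genes. Mitotic genes are switched on later by B-Myb and FoxM1, and in resting cells the DREAM complex keeps them off through CHR elements in their promoters. In a whole-tissue sample, fewer cycling cells and less RNA per cycling cell cannot be told apart.

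The libraries held 36975231 to 38470468 counts, so that 1 count equalled 0.0260 to 0.0270 CPM (counts scaled to a library's total). Albumin (Alb) took 6.96% to 7.68% of the counts in NcoR1ΔHep and 6.56% to 8.85% in flox. Ncor1 was at 5.34, 6.63 and 4.93 FPKM (fragments scaled to gene length and library size) in NcoR1ΔHep 1, 2 and 3, against 6.78, 6.70 and 7.72 FPKM in flox 1, 2 and 3. NcoR1ΔHep 2 lay just under flox 2. The edgeR log2 fold change was -0.31 (SE 0.21, adjusted p = 0.931), and a two-sided exact permutation test could go no lower than its p of 0.1 with groups of 3. Where in the gene the counted reads lie is not known, so this is a weak check of the labels. NcoR1ΔHep 1 stood apart in its sex-linked transcripts, with 17138 counts of Xist against 6 to 18 in each other library. Flox 1 and flox 2 stood apart in the clock output gene Dbp, at 0.948 and 3.76 FPKM, against 37.6 to 92.6 FPKM in NcoR1ΔHep and 47.2 FPKM in flox 3.

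Promoter windows show how the G2/M and the S-phase genes differ in their letters. RefSeq (GRCm38.p6) windows of 250 bases before to 50 after the start were found for 29 of the 36 genes, and none was found for Ccnd1, Ccnd2, Ccne2, Mcm4, Ccna2, Aurkb and Foxm1. The CHR element TTTGAA, read on both strands, occurred in 9 of 12 G2/M promoters, in 1 of 9 S-phase promoters and in 1 of 8 G1 promoters, against 15.1% of the 10548 promoters of tested genes. The same 9 G2/M promoters also held a CCAAT box, a combination present in 7.39% of promoters of tested genes. The CCAAT box alone did not set the G2/M genes apart from the S-phase genes. It occurred in 11 of 12 G2/M, 8 of 9 S-phase and 4 of 8 G1 promoters, against 43.0% of promoters of tested genes. An E2F site, TTTGGCGC or TTTCCCGC on either strand, occurred in 4 of 9 S-phase promoters (Mcm3, Mcm5, Mcm6 and Mcm7), in 1 of 8 G1 promoters (Cdk2) and in 0 of 12 G2/M promoters, against 3.28% of promoters of tested genes. A match is a description of letters and not a bound site. The 150 bases before the start are shown for 4 G2/M genes that hold both the CHR element and the CCAAT box, and for 2 replication genes with an E2F site. Capitals mark each match, and TTCAAA and ATTGG are the CHR element and the CCAAT box on the other strand. The windows are chr4:118437344-118437493 on the minus strand for Cdc20, chr19:37376232-37376381 on the plus strand for Kif11, chr10:69352913-69353062 on the minus strand for Cdk1, and chr11:99024190-99024339 on the minus strand for Top2a. Those of the replication genes are chr1:128359706-128359855 on the minus strand for Mcm6 and chr8:75109359-75109508 on the plus strand for Mcm5.
Cdc20: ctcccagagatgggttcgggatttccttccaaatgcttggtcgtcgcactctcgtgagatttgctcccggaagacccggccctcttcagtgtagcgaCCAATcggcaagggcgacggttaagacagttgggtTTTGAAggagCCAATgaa
Kif11: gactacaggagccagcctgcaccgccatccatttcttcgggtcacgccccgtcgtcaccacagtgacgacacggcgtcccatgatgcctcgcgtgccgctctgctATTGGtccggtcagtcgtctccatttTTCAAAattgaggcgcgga
Cdk1: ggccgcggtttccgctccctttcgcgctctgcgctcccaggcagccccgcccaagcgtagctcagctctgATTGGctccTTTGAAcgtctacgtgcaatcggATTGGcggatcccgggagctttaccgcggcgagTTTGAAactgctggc
Top2a: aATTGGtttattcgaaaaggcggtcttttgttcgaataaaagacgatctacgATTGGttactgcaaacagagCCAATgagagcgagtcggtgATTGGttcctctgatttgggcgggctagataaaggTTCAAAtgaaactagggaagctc
Mcm6: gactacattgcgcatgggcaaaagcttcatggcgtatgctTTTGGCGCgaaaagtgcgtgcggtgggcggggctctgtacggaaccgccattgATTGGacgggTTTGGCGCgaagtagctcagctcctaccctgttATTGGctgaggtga
Mcm5: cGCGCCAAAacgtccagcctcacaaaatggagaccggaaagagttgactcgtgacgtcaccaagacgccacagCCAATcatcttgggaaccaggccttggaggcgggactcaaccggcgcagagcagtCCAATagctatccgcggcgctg
In the Cdc20, Kif11, Cdk1 and Top2a windows a CHR element begins 15 to 23 bases before the start. In each of these 4 windows a CCAAT box lies upstream of that element, its first base 45 to 58 bases before the start. The other G2/M promoters with both motifs held their CHR elements elsewhere. Those of Aurka, Plk1 and Bub1b began 32, 30 and 40 bases after the start. In Ccnb2 they began 167 bases before and 4 after it, and in Mki67 116 and 98 bases before it.

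Levels per gene length interleaved between G1 and S-phase genes, while the G2/M genes began at rank 14 of 36 and filled ranks 28 to 36. Pcna, the clamp that holds DNA polymerase on its template, had the highest mean over the 6 libraries (18.6 FPKM), followed by Ccnd1 (cyclin D1, 15.5 FPKM), its kinase Cdk4 (15.1 FPKM) and the inhibitor Cdkn1b (p27, 11.1 FPKM). The next in order, Cdkn2c, was at 4.02 FPKM. No G2/M gene exceeded the 1.26 FPKM of Cdc20, the activator of the anaphase-promoting complex, and the lowest was the spindle checkpoint kinase Bub1 at 0.0810 FPKM. Pcna and Ccnd1 do not differ in this order beyond their spread, since Ccnd1 alone ranged over 7.92 to 25.6 FPKM.

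No member passed the edgeR quasi-likelihood test after Benjamini-Hochberg adjustment over all genes (0 of 36, smallest adjusted p = 0.931), where 0.0% of the 13205 genes passed. DESeq2 also called 0 of 36, against 0.0246% of its 20289 genes. At an unadjusted edgeR p under 0.05, 2 members had lower and 1 had higher levels in NcoR1ΔHep, against 1.92% and 1.43% of all genes. By DESeq2, 8 members had an unadjusted p under 0.05, against 3.02% of all genes. The groups did not overlap in CPM for 1 member with lower levels (Bub1) and 1 with higher levels (Cdkn2c), against 4.95% and 2.61% of all genes. With TMM-scaled CPM these were again Bub1 and Cdkn2c, against 5.53% and 3.29% of all genes. The G2/M genes were the most uneven across libraries.

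**Figure D1:**
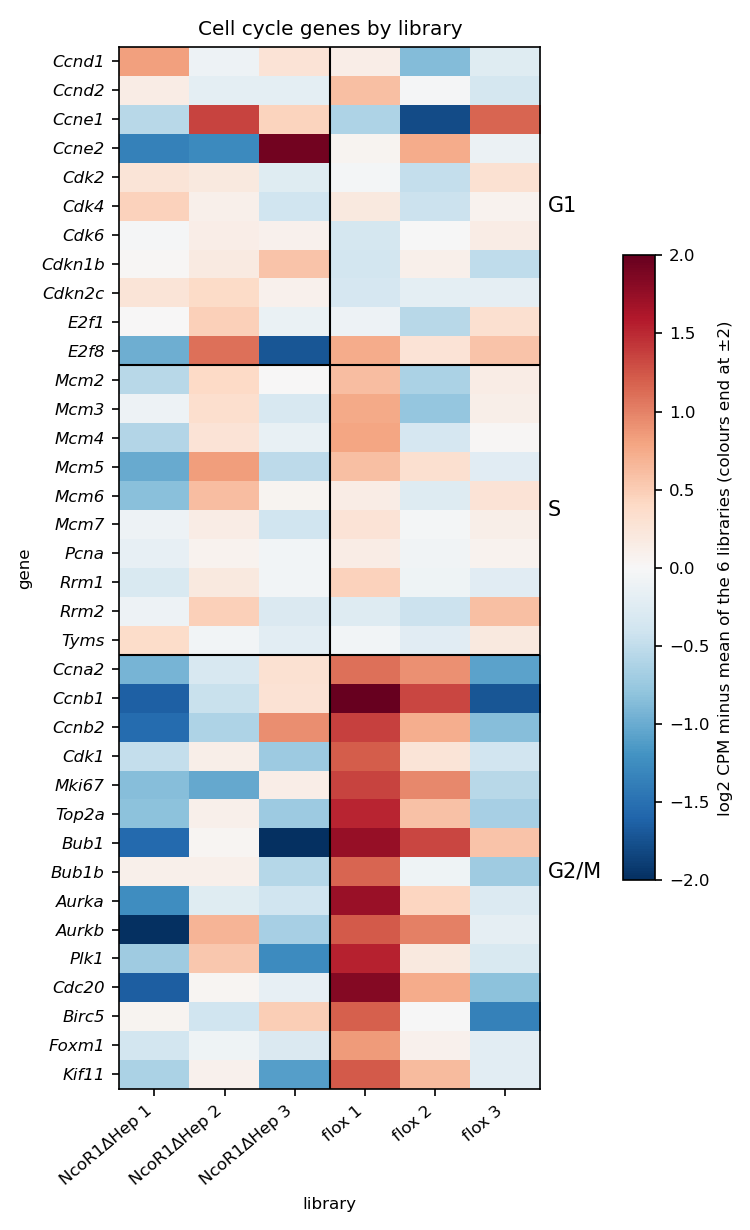
Level of each of the 36 genes (rows, grouped as G1, S and G2/M) in each library (columns), as log2 CPM minus the mean of the 6 libraries, with red above and blue below that mean. All 15 G2/M genes have their highest value in flox 1, and flox 3 lies inside the NcoR1ΔHep range for 10 of the 15 (66.7%, against 65.7% of all genes with counts in every library).

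All 15 G2/M genes had a log2 fold change below 0 (NcoR1ΔHep over flox), with a median of -1.04 (quartiles -1.24 and -0.67). Over all genes 46.5% lay below 0 and the median was 0.03. Every G2/M gene had its highest CPM in flox 1 (15 of 15, against 28.2% of all genes), and in 11 of 15 flox 2 was the second highest (against 10.8% of all genes with flox 1 and flox 2 on top). With TMM-scaled CPM these counts were 13 of 15 (against 16.4%) and 11 of 15 (against 9.7%). Counting by highest library was chosen after the data were seen, so these counts are description only. Without flox 1 and flox 2, flox 3 is the only flox library, and the fit assumes that it varies like the others. In that setting 10 of the 15 had a log2 fold change above 0 and the median was 0.14. The 2 libraries left out are the highest in the G2/M sum, so a rise of the median follows from that choice and tests nothing. Without flox 3 instead, the median was -1.35, with 15 of 15 below 0. Without flox 1 alone the median was -0.57, and 13 of 15 lay below 0. Without NcoR1ΔHep 1, the library apart in Xist, it was -0.70, with 15 of 15 below 0.

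Summed over the 15 genes, the G2/M level was 11.9, 18.8 and 19.6 CPM in NcoR1ΔHep 1, 2 and 3, against 56.4, 33.6 and 13.4 CPM in flox 1, 2 and 3. Flox 1 and flox 2 lay above every NcoR1ΔHep library, and flox 3 lay inside the NcoR1ΔHep range. The mean was 16.8 ± 4.26 CPM in NcoR1ΔHep and 34.5 ± 21.6 CPM in flox (SD, n = 3 each), so the flox spread was wider than the gap between the means. As a share of the counts of all 36 genes, the G2/M genes took 4.19% (95% Wilson interval 3.83% to 4.59%), 6.49% (6.05% to 6.97%) and 7.46% (6.95% to 7.99%) in NcoR1ΔHep 1, 2 and 3. In flox they took 17.95% (17.3% to 18.6%), 14.6% (13.9% to 15.4%) and 5.36% (4.92% to 5.84%). The intervals cover counting error only. They do not overlap between flox 1 or flox 2 and any other library.

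**Figure D2:**
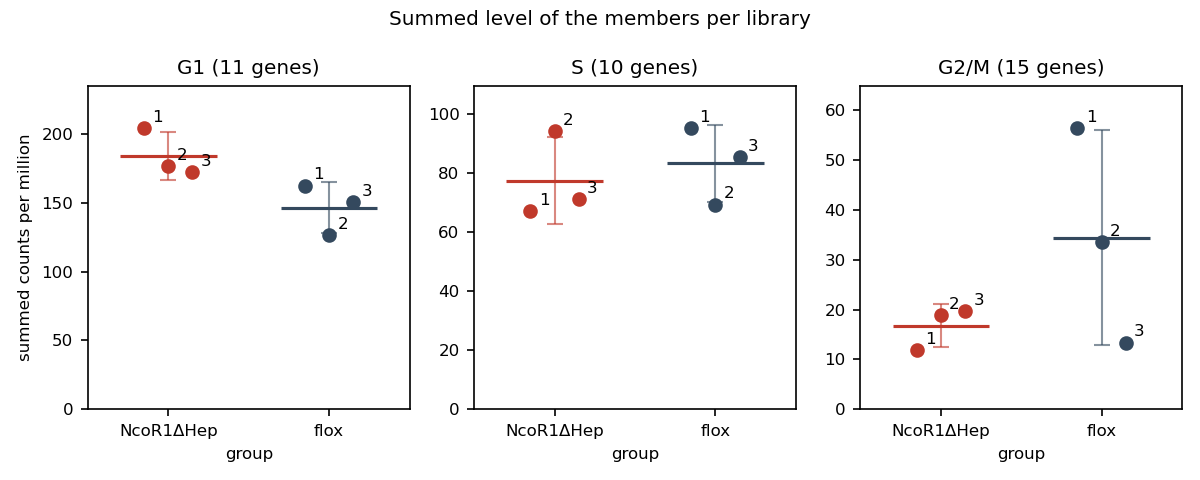
Summed CPM of the G1, S and G2/M genes in each library (points, numbered by replicate), with the group mean (line) and SD (bar), NcoR1ΔHep left of flox. The G2/M panel spreads over 13.4 to 56.4 CPM within flox, against 11.9 to 19.6 CPM within NcoR1ΔHep, while the S-phase panel overlaps throughout.

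The first group of G2/M genes was the cyclins and the kinase that drive entry into mitosis, with Foxm1. Ccnb1 (cyclin B1, the partner of Cdk1) had 15, 34 and 57 counts in NcoR1ΔHep 1, 2 and 3, against 214, 121 and 14 in flox 1, 2 and 3. Flox 3 was thus the lowest of the 6 libraries and flox 1 the highest, 14.9-fold apart in CPM within flox. The log2 fold change was -1.58 (95% interval -3.56 to 0.40, edgeR adjusted p = 0.931), and 1.40 without flox 1 and flox 2. Ccna2 (cyclin A2) had 53, 80 and 124 counts in NcoR1ΔHep, against 219, 194 and 47 in flox. Ccnb2 (cyclin B2) had 17, 32 and 94 counts in NcoR1ΔHep, against 129, 84 and 27 in flox. Flox 3 was the lowest library for Ccna2 and lay inside the NcoR1ΔHep range for Ccnb2, for which NcoR1ΔHep 3 also lay above flox 2. Cdk1, the mitotic kinase, had 65, 97 and 54 counts in NcoR1ΔHep, against 212, 110 and 68 in flox. Its log2 fold change was -0.78 (95% interval -1.77 to 0.20). Foxm1, a transcription factor for these genes, stayed at 20 to 24 counts in NcoR1ΔHep and had 47, 28 and 22 in flox. Flox 3 lay inside the NcoR1ΔHep range for Cdk1 and Foxm1.

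Markers of proliferating cells followed the same libraries. Mki67, the Ki-67 antigen, had 61, 54 and 120 counts in NcoR1ΔHep 1, 2 and 3, against 284, 219 and 74 in flox. Only flox 1 and flox 2 lay above all NcoR1ΔHep libraries, and flox 3 lay among them. Its log2 fold change was -1.19 (95% interval -2.44 to 0.05), and 0.14 without flox 1 and flox 2. Top2a, the topoisomerase that untangles replicated chromosomes, had 56, 105 and 59 counts in NcoR1ΔHep, against 287, 152 and 61 in flox (log2 fold change -1.10, 95% interval -2.30 to 0.10). Birc5 (survivin), a subunit of the chromosomal passenger complex, had 43, 31 and 58 counts in NcoR1ΔHep and 96, 42 and 16 in flox. Its fold change was near 0 (-0.11, 95% interval -1.51 to 1.29), as flox 3 was the lowest library and flox 2 lay among NcoR1ΔHep.

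Spindle and checkpoint genes included both G2/M members with an unadjusted edgeR p under 0.05. Bub1 had 3, 9 and 2 counts in NcoR1ΔHep, against 30, 23 and 13 in flox. Bub1 was the only G2/M member whose groups did not overlap. The log2 fold change was -2.16 (SE 0.66, edgeR unadjusted p = 0.0114, adjusted p = 0.931). Each NcoR1ΔHep count was under the filter minimum of 10, so Bub1 was tested only because it was higher in flox. The exact Poisson intervals of NcoR1ΔHep 2 (4.12 to 17.1 counts) and flox 3 (6.92 to 22.2 counts) overlap. Aurka (Aurora A, a spindle pole kinase) had 14, 28 and 25 counts in NcoR1ΔHep, against 111, 46 and 27 in flox. Its unadjusted edgeR p was 0.0476 (log2 fold change -1.35, SE 0.58, adjusted p = 0.931), and without flox 1 the log2 fold change was -0.71. Flox 3 lay between NcoR1ΔHep 3 and NcoR1ΔHep 2, so the groups overlapped.

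The remaining mitotic genes had the same high library. Cdc20 had 20, 64 and 56 counts in NcoR1ΔHep, against 228, 108 and 35 in flox. The motor protein gene Kif11 (Eg5) had 25, 41 and 18 counts in NcoR1ΔHep, against 92, 62 and 33 in flox. Plk1, the Polo-like kinase, had 16, 38 and 11 counts in NcoR1ΔHep, against 77, 31 and 21 in flox. In each of these 3 genes flox 3 lay inside the NcoR1ΔHep range, and for Plk1 flox 2 did as well. Aurkb (Aurora B) had 5, 33 and 13 counts in NcoR1ΔHep and 49, 43 and 18 in flox. Bub1b (BubR1, a checkpoint protein) had 32, 32 and 20 counts in NcoR1ΔHep and 68, 29 and 18 in flox, where flox 1 alone stood out.

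Within flox, the ratio of flox 1 to flox 3 in CPM ranged from 2.08 to 14.9 over the G2/M genes, with a median of 3.74. The median ratio was 1.25 for S-phase genes, 1.08 for G1 genes and 1.11 for all tested genes with counts in every library. Flox 2 exceeded flox 3 in 15 of 15 G2/M genes (median ratio 2.30), in 2 of 10 S-phase genes, in 3 of 11 G1 genes and in 41.3% of all such genes. Flox 3 lay inside the NcoR1ΔHep range in 10 of 15 G2/M genes (66.7%), about the share of all such genes (65.7%).

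**Figure D3:**
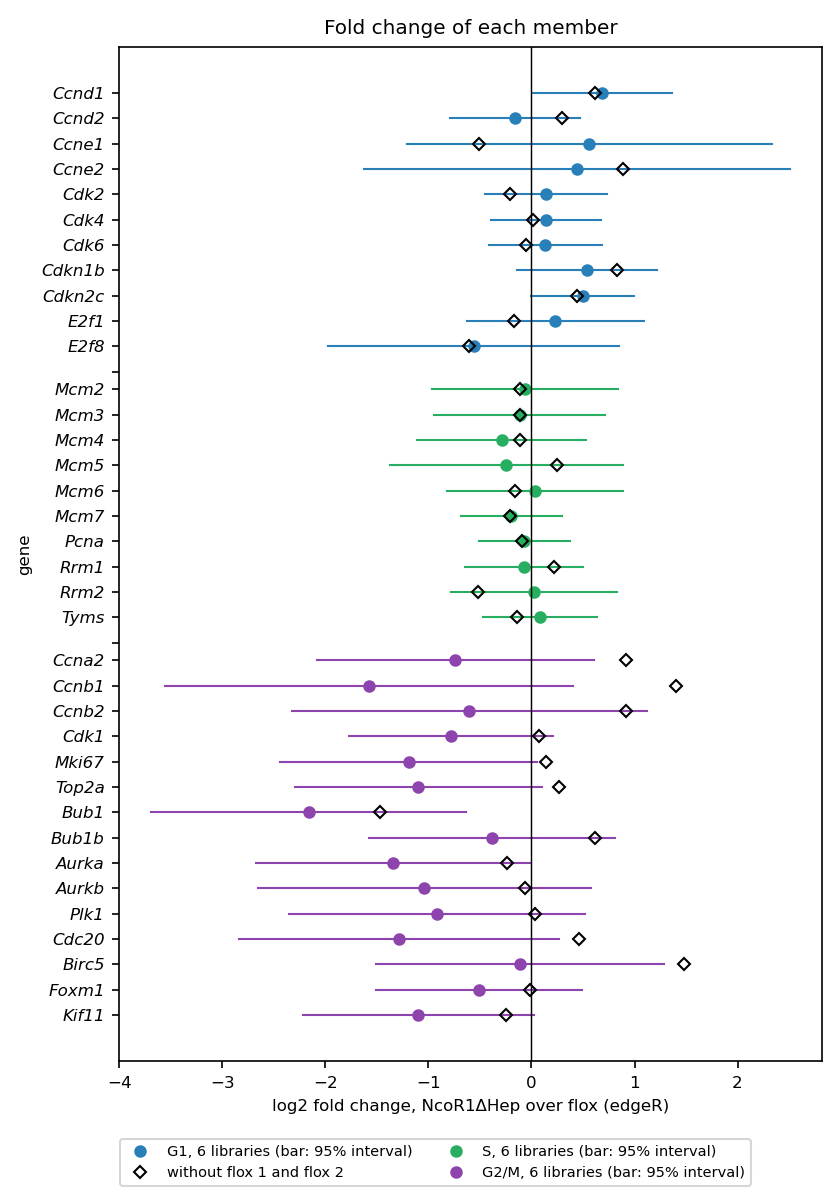
Log2 fold change (NcoR1ΔHep over flox, edgeR) of each member with its 95% interval (filled points and bars, 6 libraries) and without flox 1 and flox 2 (open diamonds). The G2/M medians are -1.04 and 0.14, and the S-phase medians -0.07 and -0.11. Flox 1 and flox 2 are the libraries highest in the G2/M sum, so the shift of the G2/M diamonds follows from leaving them out.

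Among the G1 genes 9 of 11 log2 fold changes lay above 0, with a median of 0.23, against 0.03 for all genes. Without flox 1 and flox 2, 6 of 11 lay above 0 and the median was 0.012, and without NcoR1ΔHep 1 they were 8 of 11 and 0.35. Ccnd1 was at 25.6, 13.5 and 17.5 FPKM in NcoR1ΔHep 1, 2 and 3, against 15.9, 7.92 and 12.3 FPKM in flox 1, 2 and 3. Its highest value was in NcoR1ΔHep 1 and its lowest in flox 2, with overlap between NcoR1ΔHep 2 and flox 1. The log2 fold change was 0.68 (SE 0.29, edgeR unadjusted p = 0.0482, adjusted p = 0.931). Without NcoR1ΔHep 1, the library apart in Xist, it was 0.49 (edgeR unadjusted p = 0.131). Summed over the 11 genes, G1 transcripts were at 204, 177 and 172 CPM in NcoR1ΔHep, against 163, 127 and 151 CPM in flox. The sums did not overlap, and Ccnd1 was the largest single part of each. Taken gene by gene, only 1 of the 11 (Cdkn2c) was without overlap. The summed level of 28 further G1 genes did overlap, at 193, 242 and 218 CPM in NcoR1ΔHep and 212, 206 and 195 CPM in flox.

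The members include 2 inhibitors of the G1 kinases, and neither passed the test. Cdkn2c (p18, which blocks Cdk4 and Cdk6) was at 4.74, 5.15 and 4.19 FPKM in NcoR1ΔHep, against 3.12, 3.45 and 3.48 FPKM in flox. All 3 NcoR1ΔHep libraries lay above all 3 flox libraries, also with TMM scaling. The log2 fold change was 0.50 (SE 0.22, edgeR unadjusted p = 0.05001, adjusted p = 0.931), and 0.56 without NcoR1ΔHep 1. Cdkn1b was at 10.9, 12.2 and 16.0 FPKM in NcoR1ΔHep, against 8.32, 11.5 and 7.55 FPKM in flox (log2 fold change 0.54, 95% interval -0.14 to 1.22). Flox 2 lay above NcoR1ΔHep 1, so the groups overlapped.

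Cyclin E genes and the atypical repressor E2f8 turned on single libraries. Ccne2 had 19, 20 and 183 counts in NcoR1ΔHep, against 51, 83 and 44 in flox. NcoR1ΔHep 3 was the highest library and the other NcoR1ΔHep libraries the lowest. The log2 fold change was 0.44 (95% interval -1.63 to 2.51), and -1.65 without NcoR1ΔHep 3. Ccne1 had 32, 120 and 64 counts in NcoR1ΔHep and 31, 14 and 104 in flox, with no division by group. E2f8, which limits E2F targets and is known for its part in hepatocyte polyploidy, had 198, 834 and 119 counts in NcoR1ΔHep, against 666, 483 and 575 in flox. NcoR1ΔHep 2 was above all flox libraries, while NcoR1ΔHep 1 and 3 were far below them. Its log2 fold change was -0.56 (95% interval -1.97 to 0.85), and -1.83 without NcoR1ΔHep 2.

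The other G1 members differed less. Cdk4 was at 20.3, 15.7 and 11.1 FPKM in NcoR1ΔHep and 16.7, 10.9 and 15.5 FPKM in flox, with a log2 fold change of 0.14 (95% interval -0.40 to 0.68). The intervals of Cdk2, Cdk6, Ccnd2 and E2f1 also held 0, with log2 fold changes of 0.14, 0.14, -0.16 and 0.23. E2f1, the activator at the entry into S phase, had 56 to 85 counts in NcoR1ΔHep and 43 to 76 in flox. These 5 genes overlapped between the groups.

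Replication genes did not divide by group. Of the 10 S-phase genes, 7 had a log2 fold change below 0 and the median was -0.07. Without NcoR1ΔHep 1 that count was 4 and the median 0.08, and without flox 1 it was 4 with 0.01. Their summed level was 67.1, 94.3 and 71.2 CPM in NcoR1ΔHep, against 95.3, 69.4 and 85.4 CPM in flox, so that NcoR1ΔHep 2 and flox 1 were both high. Pcna was at 16.6, 19.5 and 17.9 FPKM in NcoR1ΔHep, against 20.7, 17.6 and 19.5 FPKM in flox. Its log2 fold change was -0.07 with a 95% interval of -0.51 to 0.37, the narrowest of the S-phase genes.

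The Mcm genes encode the 6 subunits of the replicative helicase. Their log2 fold changes ran from -0.29 (Mcm4) to 0.03 (Mcm6), and the interval of each held 0. Mcm5 had 55, 197 and 77 counts in NcoR1ΔHep and 170, 141 and 93 in flox. Mcm6 had 184, 501 and 337 counts in NcoR1ΔHep and 367, 282 and 389 in flox, so in both genes NcoR1ΔHep 2 was the highest library and NcoR1ΔHep 1 the lowest. Mcm2, Mcm3, Mcm4 and Mcm7 had their highest CPM in flox 1. With TMM-scaled CPM this held for Mcm2, Mcm3 and Mcm4, while Mcm7 was highest in flox 3.

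The last 3 S-phase genes supply nucleotides. Rrm1 and Rrm2, the subunits of ribonucleotide reductase, had 299 to 423 and 197 to 333 counts in NcoR1ΔHep, against 312 to 513 and 185 to 361 in flox. Tyms, the thymidylate synthase, had 327, 242 and 219 counts in NcoR1ΔHep and 247, 222 and 286 in flox. The log2 fold changes were -0.07, 0.03 and 0.08, and the groups overlapped in each.

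Other genes of each phase were read from the same fit. Of 40 tested among 41 further G2/M genes, 35 had a log2 fold change below 0 (46.5% of all genes) and the median was -0.61. edgeR called 0 of the 40 and DESeq2 0, against 0.0% and 0.0246% of all genes. At an unadjusted edgeR p under 0.05 there was 1 gene (2.5%, against 3.35% of all genes). That gene was Ccnf (cyclin F), with 211, 231 and 316 counts in NcoR1ΔHep against 496, 662 and 433 in flox. The groups did not overlap (log2 fold change -1.02, SE 0.30, edgeR unadjusted p = 0.00987, adjusted p = 0.931). Lower CPM without overlap was found in 2 of the 40, against 4.95% of all genes. The next was Tpx2, a spindle assembly factor, with 20, 35 and 38 counts in NcoR1ΔHep and 157, 51 and 34 in flox. Flox 1 was the highest library, and flox 3 lay inside the NcoR1ΔHep range.

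Of 26 tested among 28 further G1 genes, 19 lay above 0 and 7 below (26.9%, against 46.5% of all genes), with a median of 0.13. edgeR called 0 and DESeq2 called 1, against 0.0% and 0.0246% of all genes. At an unadjusted edgeR p under 0.05 there were 2 (7.69%, against 3.35% of all genes). The DESeq2 call was Cdkn1a (p21, an inhibitor of cyclin-dependent kinases), with 74, 104 and 69 counts in NcoR1ΔHep against 588, 349 and 162 in flox. The groups did not overlap, and flox 1 was the highest and flox 3 the lowest within flox. Its log2 fold change was -2.08 (SE 0.43, DESeq2 adjusted p = 0.0226, edgeR adjusted p = 0.931). Cks1b, a small subunit of cyclin-dependent kinases, had 231, 236 and 189 counts in NcoR1ΔHep against 144, 81 and 157 in flox. Its groups did not overlap either (log2 fold change 0.82, SE 0.30). In CPM, 1 of the 26 had lower and 2 had higher levels without overlap, against 4.95% and 2.61% of all genes. Of 35 tested among 37 further S-phase genes, 13 lay below 0 (37.1%, against 46.5% of all genes), and the median was 0.07. edgeR and DESeq2 called 0, and 1 (2.86%, against 3.35% of all genes) had an unadjusted edgeR p under 0.05. Rpa3, a subunit of the single-strand binding complex, had 434, 212 and 208 counts in NcoR1ΔHep and 182, 167 and 177 in flox. The histone chaperone subunit Chaf1b had 77, 100 and 46 counts in NcoR1ΔHep and 45, 35 and 51 in flox.

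Markers of other liver cells were set beside the G2/M genes. Sinusoidal endothelial markers had 11 of 12 log2 fold changes below 0. Their sum was 282, 162 and 118 CPM in NcoR1ΔHep 1, 2 and 3, against 481, 177 and 239 CPM in flox 1, 2 and 3. They were highest in flox 1, as the G2/M genes were, but flox 2 lay below flox 3. Gene by gene, 11 of 12 endothelial markers had their highest CPM in flox 1 (91.7%, against 28.2% of all genes). With TMM-scaled CPM it was also 11 of 12 (against 16.4%). Kupffer cell markers had 9 of 11 below 0 and summed to 242 to 616 CPM in NcoR1ΔHep and 381 to 596 CPM in flox. Erythroid markers had 3 of 7 tested genes below 0 and summed to 181, 232 and 256 CPM in NcoR1ΔHep, against 364, 273 and 264 CPM in flox. That sum was highest in flox 1 and second in flox 2, but the genes of the list did not share this order. Hbb-bs followed it, while Hba-a1, Hba-a2 and Klf1 were highest in NcoR1ΔHep 1. In the mean of log2(CPM + 1) minus the 6-library mean, flox 2 (-0.07) lay below flox 3 (0.05). Stellate cell markers had 1 of 10 below 0, and summed to 442 to 610 CPM in NcoR1ΔHep and 384 to 505 CPM in flox. Cholangiocyte markers had 1 of 4 tested genes below 0 and summed to 37.9 to 170 CPM in NcoR1ΔHep and 43.1 to 56.7 CPM in flox. T and NK cell markers (4 of 10 below 0) summed to 3.35 to 7.18 CPM in NcoR1ΔHep and 4.62 to 6.40 CPM in flox, and B and plasma cell markers (1 of 5) to 4.85 to 8.41 CPM in NcoR1ΔHep and 3.95 to 4.96 CPM in flox. Neutrophil markers (3 of 3 below 0) summed to 3.52 to 6.94 CPM in NcoR1ΔHep and 1.74 to 12.4 CPM in flox. Hepatocyte markers had 5 of 8 below 0. They summed to 102193, 110044 and 108274 CPM in NcoR1ΔHep, against 121180, 119512 and 100696 CPM in flox, so flox 1 and flox 2 were highest. With TMM-scaled CPM the highest sums were in flox 2 (128064) and NcoR1ΔHep 3 (120168). Flox 1 and flox 2 held the 2 highest CPM in 3 of 8 hepatocyte markers (37.5%, against 10.8% of all genes). With TMM-scaled CPM this was 0 of 8 (against 9.7%). No marker with a row in the deposited tables was at 0 in all libraries. Only 11 of 12 T and NK cell markers and 6 of 8 B and plasma cell markers had a row. The part of these cells, or of the low Dbp in flox 1 and flox 2, in the G2/M values was not tested.

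**Figure D4:**
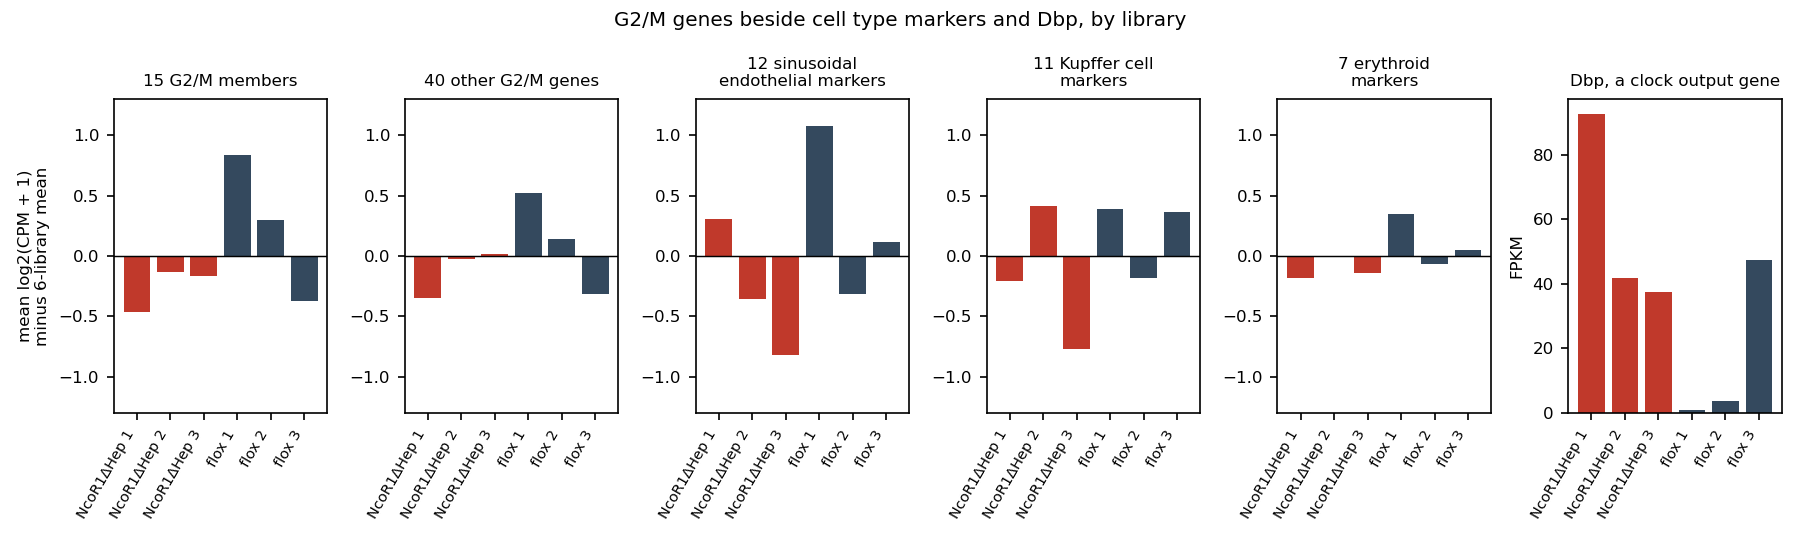
Mean of log2(CPM + 1) minus the mean of the 6 libraries for the G2/M members, the other G2/M genes and 3 marker lists, and Dbp in FPKM, with NcoR1ΔHep bars in red left of flox bars in dark blue. The G2/M panels are highest in flox 1 and flox 2, the libraries in which Dbp was 0.948 and 3.76 FPKM, while the endothelial panel is highest in flox 1 and NcoR1ΔHep 1.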

How the data were processed

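RNA was measured in 6 liver libraries, made with a Qiagen RNeasy kit and a SMARTer mRNA kit per the labels' protocols. The authors deposited raw counts per gene symbol, and FPKM of the same genes per the file names. GRCm38, mm10 and hg38 stand in the submitters' processing notes as builds, with no step given. An aligner, a counter or its strand setting is not given in the sources used here, so reads of overlapping genes cannot be told apart.

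Groups follow the titles. Genes were filtered with filterByExpr (minimum count 10, minimum total 15), scaled by TMM and compared by edgeR 4.0.16 in R 4.3.3 with the quasi-likelihood test, two-sided, with Benjamini-Hochberg adjustment over 13205 genes at 0.05, without a term for replicate number. Intervals come from the same fit. CPM use total counts. Permutation tests used scipy 1.17.1. The scripts were tested on simulated data. Alternatives were DESeq2 1.42.0, limma 3.58.1 (voom, and log2 FPKM with pseudocounts of 1 and 0.1), other scaling and filters, the block, and each library left out.

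The members and lists were chosen with earlier results of these data known. The text names all 36 members, Ncor1, and the 2 genes of each further list with the smallest p. Xist and Dbp are named as facts on single libraries. Alb was named from the marker lists after its values were seen. Promoter sequences are RefSeq's. The counts by highest library and the setting without flox 1 and flox 2 were chosen after the data were seen. A rise of the G2/M fold changes in that setting follows from the choice of libraries.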

Additional observations from a re-analysis of the deposited data

How the results depend on the processing

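Over all genes edgeR called 0 in the main analysis and under every alternative fitted with edgeR or limma, while DESeq2 called 5 genes, of which 0 are members and 1 (Cdkn1a) is another cell cycle gene. Members called stayed at 0 under all 17 alternatives. The G1 median was 0.10 with limma on log2(FPKM + 1), 0.10 without its filter, 0.012 without flox 1 and flox 2, and 0.11 to 0.37 with each library left out. The G2/M median was -0.37 with limma on log2(FPKM + 1), where 6 genes passed the filter, -0.28 without that filter, and -1.43 to -0.57 with each library left out. A pseudocount of 1 shrinks differences of genes at these levels. Without flox 1 and flox 2 the G2/M median was 0.14 and the log2 ratio of the summed CPM was 0.33, against -1.04 for both in the main analysis. That shift follows from leaving out the libraries highest in the G2/M sum, and why those were high was not tested.

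Members that changed sign had no call in any setting. Without flox 1 and flox 2 they were Ccnd2 (0.30), Ccne1 (-0.51), Cdk2 (-0.21), Cdk6 (-0.051), E2f1 (-0.17), Mcm5 (0.25), Mcm6 (-0.16), Rrm1 (0.22), Rrm2 (-0.52), Tyms (-0.14), Ccna2 (0.92), Ccnb1 (1.40), Ccnb2 (0.92), Cdk1 (0.077), Mki67 (0.14), Top2a (0.27), Bub1b (0.62), Plk1 (0.030), Cdc20 (0.46) and Birc5 (1.48). Mcm6 was -0.10 with limma-voom, -0.084 with the replicate block, -0.0077 with total counts only, -0.047 with limma on log2(FPKM + 1) with and without a filter, and -0.10 with a pseudocount of 0.1. Ccne2 and Birc5 were -0.48 and 0.076 with limma-voom and -0.50 and 0.048 with the replicate block. With each library left out, values ran from -0.34 to 0.063 for Ccnd2, -1.65 to 0.94 for Ccne2, -0.0036 to 0.37 for Cdk2, -0.0080 to 0.28 for Cdk4, -0.032 to 0.26 for Cdk6, -0.30 to 0.20 for Mcm2, -0.39 to 0.22 for Mcm3, -0.50 to 0.012 for Mcm4, -0.94 to 0.11 for Mcm5 and -0.32 to 0.38 for Mcm6. They ran from -0.15 to 0.052 for Pcna, -0.19 to 0.10 for Rrm1, -0.22 to 0.43 for Rrm2, -0.019 to 0.22 for Tyms, -0.70 to 0.20 for Bub1b and -0.52 to 0.59 for Birc5.

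Replicate numbers did not pair the libraries. Deviations from the group means correlated at 0.02, -0.32 and -0.46 for numbers 1, 2 and 3. With the replicate block edgeR called 0 genes, 175 genes had an unadjusted p under 0.05 against 443 without it, and the G1, S and G2/M medians were 0.17, -0.08 and -0.93. With 3 libraries a group and G2/M counts as low as 2, the intervals of most mitotic genes are wide, as that of Ccnb1 (-3.56 to 0.40) shows.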

Other observations

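Regulators outside the members also divided the libraries in ways that crossed the groups. These genes were chosen after their values were seen. Wee1, the kinase that holds Cdk1 inactive and is also known as an output of the circadian clock, was at 2.95, 2.49 and 4.89 FPKM in NcoR1ΔHep 1, 2 and 3, against 0.578, 1.19 and 2.86 FPKM in flox 1, 2 and 3. Flox 1 and flox 2 were thus the lowest libraries, the reverse of their place among the G2/M genes, and the log2 fold change was 1.18 (SE 0.59, edgeR unadjusted p = 0.0794). Rbl1 (p107, a pocket protein of the DREAM complex) was at 0.399, 0.454 and 0.541 FPKM in NcoR1ΔHep, against 0.983, 0.633 and 0.292 FPKM in flox, the order of the G2/M genes within flox.

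Myc, a transcription factor that promotes growth and cell cycle entry, was at 2.80, 18.8 and 1.09 FPKM in NcoR1ΔHep, against 0.977, 0.531 and 5.77 FPKM in flox. NcoR1ΔHep 2 and flox 3 were the highest libraries, and flox 1 and flox 2 the lowest. Ccne1, a member, had its 2 highest counts in those same 2 libraries (120 in NcoR1ΔHep 2 and 104 in flox 3).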
